A study of Mus musculus with 46 samples.

Results

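The follicles described here are the 10 single mouse ovarian follicles of batch 1 collected 1 h after human chorionic gonadotropin (hCG), of 46 follicles in the series, taken by their labels. They are separate samples of 1 group, and what follows is how they differed from each other, with no test between times. Follicles of CD-1 mice, an outbred stock, had been grown singly in alginate, a seaweed gel, for 8 days and then freed from it with alginate lyase. All 10 received the same maturation medium, with hCG at 1.5 IU/ml, epidermal growth factor (EGF) at 10 ng/ml, recombinant follicle-stimulating hormone at 10 mIU/ml and 10% fetal bovine serum. Each was snap-frozen whole, so a library holds the RNA of granulosa cells, theca cells, oocyte and any attached stroma together. The labels do not tie follicles to animals, so p-values measure only the spread between these follicles, some of which may share a mouse.

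hCG binds the luteinizing hormone receptor, which in a preovulatory follicle sits on theca cells and on mural granulosa cells and signals mainly through cyclic AMP. EGF-like ligands then carry the signal through the ERK kinases to granulosa cells that lack the receptor. Among the first genes to respond in most cells are the immediate early genes, which need no new protein: transcription factors such as Fos, Junb, Egr1 and Nr4a1, and feedback inhibitors such as Dusp1, a phosphatase of MAP kinases, and Zfp36, which destabilizes short-lived messenger RNAs.

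Total counts per library ran from 302737 to 1212671, with a median of 767264, and between 9772 and 12547 genes had a count. Mitochondrially encoded genes took 9.77% to 14.8% of the counts. None of the 45 pairs of follicles had identical counts, and each of the 10 correlated more with the mean of the other follicles at 1 h than with the mean at 4 h or 8 h. Replicate 1 stood apart on the first principal component (24.6% of the variance) and replicate 5 on the second (19.1%). All 10 came from 1 plate of batch 1, so the 10 could not be split by batch.

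Defining markers were used to check what the follicles held. Inha, the inhibin alpha subunit that marks granulosa cells, was between 14000 and 27970 CPM (counts of a gene per 1e+06 counts of its library, scaled with TMM factors) in all 10, and the gap junction gene Gja1 between 31190 and 50950 CPM. Theca markers were low but present in most follicles. None of the 15 oocyte genes reached a mean count of 10. Their summed level was 3.73 to 137 CPM (here without TMM factors), with a median of 34.4, lowest in replicate 1 and highest in replicate 8. Gdf9, Zp3 and Bmp15, which encode oocyte-secreted growth factors and a zona pellucida protein, were at 0 in 4, 5 and 6 follicles. The 5 erythroid genes had no count, and the pan-leukocyte gene Ptprc was at 0 in all 10. The other leukocyte genes listed did have counts. Lyz2 had 458 over the 10 follicles, and Csf1r, Cd68, Tyrobp, Adgre1 and Cd52 had 15, 12, 9, 7 and 1.

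Most genes differed little between follicles, and a minority differed by far more than their abundance foretells. Of 4755 genes with a mean count of at least 10, 290 (6.1%) varied beyond the mean-variance trend at an adjusted p under 0.05 (edgeR, negative binomial deviance at the trended dispersion against chi-square, Benjamini-Hochberg). The typical coefficient of variation between follicles was 31.2%. The SD of log2 CPM had a median of 0.416 over all tested genes and 1.107 over the 290. Of the 290, 126 were called whichever follicle was left out and 164 were lost without at least 1, most often replicate 1, without which 78 were lost. The call depends strongly on the rule: an F test with an estimated prior called 0 genes (282 had an unadjusted p under 0.05), and DESeq2 marked 24 as dispersion outliers, all of them among the 290.

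**Figure D1:**
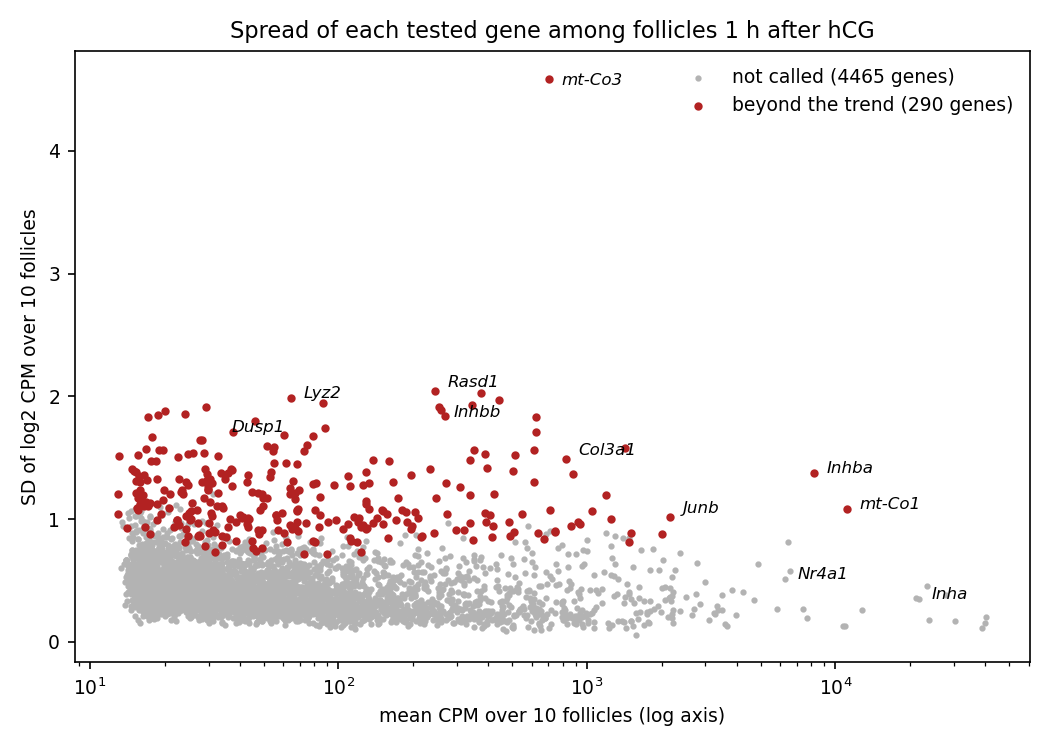
Spread of each tested gene among the 10 follicles, as the SD of log2 CPM (y) against the mean CPM (x, log axis). The 290 red points are genes beyond the mean-variance trend at an adjusted p under 0.05, and grey points are the other tested genes. Inhba and Junb lie above other abundant genes such as Inha and Nr4a1, which were not called.

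The genes farthest beyond the trend came from several cell types and pathways. mt-Co3, a mitochondrially encoded subunit of cytochrome c oxidase, had the largest deviation, at 39.7 times the trend. Its adjusted counts were 0 in replicates 1, 2, 6, 8 and 9, 567 to 573 in replicates 3, 4 and 5, 1142 in replicate 7 and 1008 in replicate 10. These are steps rather than a spread, and 4 tested genes in all had a library at 0 or 1 and no other value under 15. The count table had been adjusted between batches, and the part of that step in these values was not tested. Next came Ass1, the urea cycle enzyme argininosuccinate synthase, at 250.6 CPM in replicate 1 and 2.08 to 14.0 CPM in the other 9 follicles, so it rests on 1 follicle. Lyz2, lysozyme of macrophages and other myeloid cells, had a lowest level of 0 in replicate 6, a median of 28.3 and a highest level of 271.4 CPM in replicate 1. Further genes among the 15 most extreme were the protease inhibitor Serpina3a (22.3 to 1131 CPM, highest in replicate 6) and Rasd1, a Ras-related G protein. Rasd1 was at 5.92 and 11.1 CPM in replicates 3 and 2 and between 188 and 528 CPM in the other 8, a pattern with no follicle in between.

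Several immediate early genes differed many-fold between follicles, and others little. Of 35 listed genes, 2 had no count in any follicle, 26 passed the filter on low counts and 13 of these varied beyond the trend, against 6.1% of all tested genes. Among transcription factors, Fos had a lowest level of 54.7 CPM in replicate 8, a median of 164.9 and a highest of 832.7 in replicate 7 (adjusted p 1.6e-06, edgeR). Junb, its dimer partner, ran from 667.7 CPM in replicate 5 through a median of 1642 to 5524 in replicate 7 (adjusted p 0.0013). In both genes replicates 7 and 2 were the highest 2, and the order of the remaining follicles was broadly shared. Nr4a1, an orphan nuclear receptor induced by luteinizing hormone, was at 3798 to 11460 CPM, Egr1 at 1152 to 4121 CPM and the antiproliferative gene Btg2 at 3737 to 12620 CPM. These abundant genes had the same lowest and highest follicle, replicates 5 and 7, but their spread was not called (1.04, 1.43 and 1.34 times the trend). Not every member of the list was high in replicate 7: Egr3, at 13.8 CPM in replicate 2 and 62.5 in replicate 10, and Cyr61, a matricellular gene at 736.3 CPM in replicate 1 and 2205 in replicate 3, had other end follicles, and neither was called. Of called members, Nr4a2 and Atf3 were highest in replicate 1 (859.6 and 302.6 CPM) and Fosb in replicate 9 (957.2 CPM).

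The 3 early genes with the largest SD of log2 CPM were feedback inhibitors. Dusp1 was lowest in replicate 5 at 6.72 CPM, had a median of 29.3 and reached 379.0 in replicate 7, a 56.4-fold range (adjusted p 1.9e-17, edgeR). Gadd45b, a stress sensor that binds MAP kinase kinases, spanned 6.72 to 192.4 CPM between the same 2 follicles (adjusted p 8e-14). Zfp36 was at 338.2 CPM in replicate 7 and 229.8 in replicate 1, against a median of 42.1 and a lowest level of 27.9 in replicate 9. The 3 genes were thus highest in replicate 7. Dusp1 and Gadd45b were lowest in replicate 5, where Zfp36 was at 35.9 CPM, below its median but above its level in replicates 3, 6 and 9. Replicate 1 ranked above replicate 2 for Zfp36 and below it for Dusp1. Ppp1r15a, which directs dephosphorylation of eIF2 alpha, spanned 309.2 to 1944 CPM (adjusted p 0.0084), a call that was lost without replicate 7 (adjusted p 0.228).

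Genes that report cyclic AMP varied in part with the same follicles. Of 6 measured, Crem, whose ICER product represses cyclic AMP-responsive genes, and the kinase gene Sik1 were called, against 6.1% of all tested genes. Crem ran from 47.1 CPM in replicate 5 through a median of 152.2 to 457.2 in replicate 7, and Sik1 from 26.9 through 89.1 to 251.9 in the same follicles. Of the 4 not called, Per1 was highest in replicate 1 at 129.9 CPM, Nfil3 in replicate 2 at 40.1, and Gem was lowest in replicate 3 at 161.5. Of the 4 measured EGF and ERK genes none was called, and at a share of 6.1% none is expected among so few. Ereg, the EGF-like ligand epiregulin, was at 2.24 to 47.0 CPM with an adjusted p of 0.051, and Areg, amphiregulin, did not reach the filter.

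The letters of the promoters were examined because the early genes moved together. A full cyclic AMP response element, TGACGTCA (a palindrome, so read alike on both strands), lay within 250 bases before to 50 after a start in 4 of 33 genes (12.1%) of the early response group described further on. It lay in 4.41% of the 3581 tested genes with a promoter in the table, and in 0 of 51 genes of the theca and stroma group. The core TGACG, which the full element contains, was present on either strand in 57.6%, 40.3% and 15.7%. In groups 2, 4, 5, 6 and 7, also described further on, the core was present in 32.4%, 50%, 60%, 16.7% and 0%. Those shares are of 34, 8, 10, 12 and 2 genes, so the share in the early group was not the highest. The serum response element, the other motif examined, lay in 6.06% of the early group, 1.62% of tested genes and 1.96% of the theca and stroma group. These shares carry no test and were not matched for CG content. A gene counted if any of its promoters held the motif. The early group had 1.52 promoters per gene, against 1.28 in tested genes and 1.33 in the theca and stroma group. Promoters were found for 33 of the 46 genes of the early group and 51 of the 76 of the other. Of the 4 early genes with the full element, Dusp1 had the largest spread and Ppp1r15a has its element nearest to the start. Plk2, a polo-like kinase, lies on the plus strand. These 3 are shown with the full element in capitals (RefSeq, GRCm38.p6). The element begins 143, 12 and 62 bases before the start at chr17:26508423-26508722 (minus strand), chr7:45526219-45526518 (minus strand) and chr13:110394794-110395093 (plus strand).
Dusp1: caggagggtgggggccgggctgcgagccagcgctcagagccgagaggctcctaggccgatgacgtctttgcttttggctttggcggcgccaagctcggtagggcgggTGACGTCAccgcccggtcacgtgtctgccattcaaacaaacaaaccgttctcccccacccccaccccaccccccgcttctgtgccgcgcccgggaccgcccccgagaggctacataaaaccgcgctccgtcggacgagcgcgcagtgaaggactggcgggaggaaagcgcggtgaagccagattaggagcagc
Ppp1r15a: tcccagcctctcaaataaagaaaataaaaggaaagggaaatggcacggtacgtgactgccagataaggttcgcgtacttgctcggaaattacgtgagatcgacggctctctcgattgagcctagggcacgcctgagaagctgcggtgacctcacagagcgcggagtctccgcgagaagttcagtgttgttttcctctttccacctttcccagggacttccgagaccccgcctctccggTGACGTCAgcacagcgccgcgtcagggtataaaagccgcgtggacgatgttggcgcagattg
Plk2: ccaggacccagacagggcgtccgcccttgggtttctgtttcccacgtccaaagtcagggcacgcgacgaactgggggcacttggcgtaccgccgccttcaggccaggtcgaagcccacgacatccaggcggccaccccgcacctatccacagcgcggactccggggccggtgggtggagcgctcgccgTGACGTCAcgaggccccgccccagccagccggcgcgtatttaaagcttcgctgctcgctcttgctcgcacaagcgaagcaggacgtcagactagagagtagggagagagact

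A score summed up each list in each follicle, as the mean over its measured members of log2 CPM minus each gene's mean over the 10. The early response score was 1.21 in replicate 7, 0.62 in replicate 2, 0.50 in replicate 1 and 0.16 in replicate 4. It was below 0 in the other 6 follicles, down to -0.64 in replicate 5. The 10 follicles thus formed a gradient with replicate 7 at its top, and no follicle stood apart by Dixon's criterion. The 3 follicles at 1 h in batch 2 had scores of -0.09, -0.07 and 0.37, inside that range. The counts had been adjusted between batches, so this is not an independent comparison.

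The ovulatory genes prepare the follicle wall and cumulus matrix for rupture. Of 18 listed, 7 were measured and 6 were called, against 6.1% of all tested genes. Adamts1, a protease that cleaves versican, and the tissue factor gene F3 had their 3 highest levels in replicates 1, 2 and 7, with Adamts1 at 197.2 CPM in replicate 5 and 2008 in replicate 2. Star, which moves cholesterol into mitochondria for steroid synthesis, ran from 35.4 CPM in replicate 6 through a median of 342.7 to 825.9 in replicate 1 (adjusted p 1.4e-08, edgeR). Its low follicle was 6, not 5, as for theca genes. Cxcl2, a neutrophil chemokine, was at 0 in 3 follicles and at 51.9 CPM in replicate 1. Vcan, the matrix proteoglycan versican, had the opposite end follicle, with 10.4 CPM in replicate 1 and 156.1 in replicate 2. Ptgs2, the prostaglandin synthase of ovulation, and the progesterone receptor gene Pgr did not reach the filter on low counts.

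**Figure D2:**
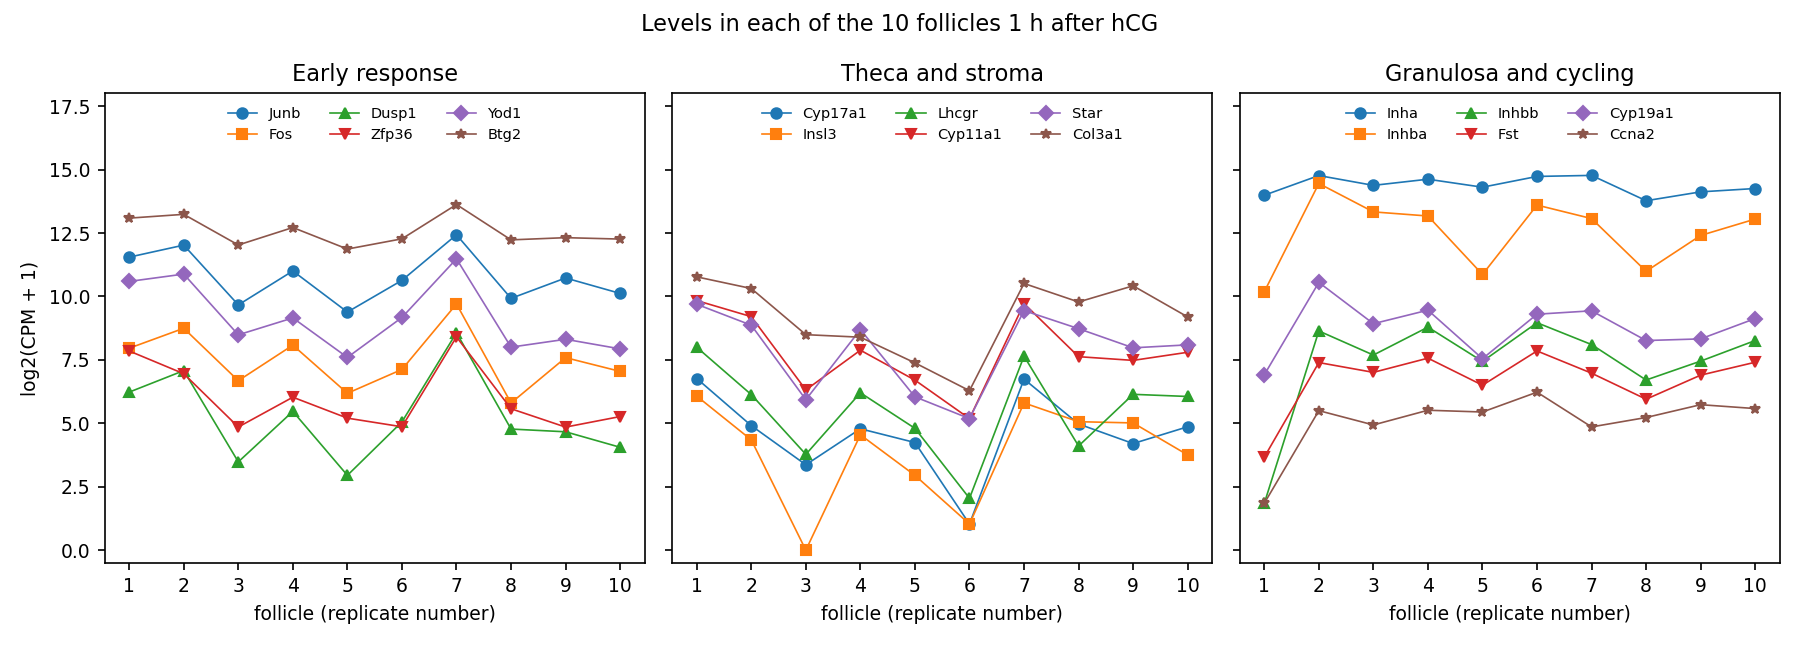
Levels of 6 early response genes, 6 theca and stroma genes and 6 granulosa and cell cycle genes in each of the 10 follicles, as log2(CPM + 1). Lines only link points of 1 gene. Replicate 7 is highest for Junb, Fos, Dusp1, Zfp36, Yod1 and Btg2, replicate 6 is lowest for Cyp17a1 and Col3a1, and replicate 1 is lowest for Inhba, Inhbb, Fst and Ccna2.

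Of the lists with at least 3 measured genes, the theca scores differed most between follicles, with an SD of 0.83 for the steroid and hedgehog list and 1.09 for the stroma list. Theca cells make androgen under luteinizing hormone, and granulosa cells turn it into estradiol. Cyp17a1, the androgen-forming enzyme, was at 1.04 CPM in replicate 6, had a median of 27.3 and was at 106.1 and 107.8 CPM in replicates 7 and 1 (adjusted p 4.9e-10, edgeR). Insl3, a theca hormone, was at 0 in replicate 3 and at 66.2 CPM in replicate 1. Aldh1a1, a retinaldehyde dehydrogenase, spanned 34.3 to 1674 CPM between replicates 6 and 1. Of the other measured members of that list, Ptch1 and Mgarp were not called. In whole follicles, fewer cells of a type and less RNA per cell cannot be told apart.

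Of the stroma list 4 of 5 measured members were called, against 6.1% of all tested genes. The collagen gene Col3a1 ran from 77.0 CPM in replicate 6 through a median of 732.0 to 1748 in replicate 1, and Col1a1 from 9.37 through 148.8 to 313.7 in replicate 7. Lhcgr, the hCG receptor itself, was lowest in replicate 6 at 3.12 CPM, had a median of 67.3 and reached 199.4 and 254.5 CPM in replicates 7 and 1 (adjusted p 3e-14). Cyp11a1, which makes the first steroid from cholesterol, spanned 35.4 to 914.2 CPM between replicates 6 and 1. The combined theca score, over 10 genes of both lists, was 1.12 in replicate 1, 0.99 in replicate 7 and -2.10 in replicate 6. Of smooth muscle genes, which mark the outer theca and vessels, only Myl9 of 4 was called, against 6.1% of all tested genes. The call of Myl9 was lost without any 1 of 5 follicles (adjusted p 0.062 to 0.253). Acta2, smooth muscle actin, was at 449.9 to 2205 CPM with no call.

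Granulosa genes split into a steady and a variable set. Inha, Fshr, the follicle-stimulating hormone receptor, and 5 others of the 12 measured were not called. The 5 called, against 6.1% of all tested genes, were Inhba, Inhbb, Fst, Cyp19a1 and Hsd17b1, which make activins, their binding protein and estradiol. Inhba, the activin beta A subunit, ran from 1164 CPM in replicate 1 through a median of 8541 to 22420 in replicate 2 (adjusted p 1.6e-06, edgeR). Inhbb, the beta B subunit, was at 2.60 CPM in replicate 1 and 103.4 to 498.5 in the other 9. Fst, follistatin, was at 11.7 CPM in replicate 1 and 60.8 to 230.0 in the others. Inhbb and Fst were no longer called without replicate 1 (adjusted p 0.196 and 0.836), whereas Inhba was. Cyp19a1, aromatase, spanned 119.5 CPM in replicate 1 to 1502 in replicate 2 and was lost without replicate 2 (adjusted p 0.123).

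Several cell cycle genes were also lowest in replicate 1. Of 12 measured, 5 were called, all lowest there, against 6.1% of all tested genes called. Cdk1 was at 1.30 CPM against a median of 26.8, Top2a at 7.79 against 58.3 and Ccna2 at 2.60 against 43.4. All 3 calls were lost without this follicle (adjusted p 0.338, 0.0683 and 1), and Ccna2 was also lost without replicate 6 (adjusted p 0.0851). Of the measured genes not called, Mcm3, Rrm2, Ccnd2 and Pcna were also lowest in replicate 1, at 1.30, 2.60, 20.8 and 19.5 CPM. The replication genes Mcm2, Mcm6 and Mcm7, not called either, were at 20.8, 16.9 and 24.7 CPM there, inside the range of the others. In the same follicle Cyp17a1, Insl3, Aldh1a1 and Lhcgr were at their highest and the early response score was above 0.

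The early response score was set against cell type scores and depth over the 10 follicles, in 11 relations with 100000 permutations each (two-sided). All scores of a follicle come from 1 library. Follicles with more theca RNA tended to have a stronger early response, but not beyond the correction. For the theca steroid and hedgehog score r was 0.64 (p 0.0456) and rho 0.62 (p 0.0599), adjusted p 0.10, and r was 0.68 without the 2 follicles farthest from the median. For the stroma score r was 0.58 (p 0.0745) and rho 0.67 (p 0.0386), adjusted p 0.137, and r was 0.68 without 2. Given log2 total count, the partial correlations were 0.82 (adjusted p 0.00696) and 0.75 (adjusted p 0.0202), so both calls hinge on whether depth enters. Replicates 7 and 1 combine high theca with a high response. Replicate 6, with the least theca RNA, had an early score below 0 (-0.38), though not the lowest: replicates 3, 5 and 8 were lower.

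With the granulosa score no relation passed: r was 0.10 (p 0.777) and rho 0.41 (p 0.247), adjusted p 0.777. It rested on replicate 1, since r was 0.53 without it (adjusted p 0.226), and r was 0.54 without replicates 1 and 8. Depth gave r 0.38 (p 0.273) and rho 0.20 (p 0.585), adjusted p 0.375 and r 0.34 without the 2 shallowest. The number of genes with a count gave r 0.28, the mitochondrial score -0.26 and the smooth muscle score -0.40, with adjusted p of 0.522, 0.523 and 0.375. Of the 7 relations among cell scores and depth none passed. The 2 strongest were of the smooth muscle score with depth (r -0.69, rho -0.68) and with the granulosa score (r -0.69, rho -0.78), each with adjusted p 0.104. The second passed without replicate 1 (r -0.86, adjusted p 0.0167).

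Other response lists, with no member in common, went up and down with the early score. For the cyclic AMP feedback list r was 0.95 (p 2e-05) and rho 0.99 (p 4e-05), adjusted p 0.00022. The ovulatory list gave r 0.90 and rho 0.88, the heat shock list 0.88 and 0.76, and the EGF and ERK list 0.85 and 0.92, with adjusted p of 0.00033, 0.00044 and 0.00426. Without the 2 end follicles, replicates 5 and 7, these r were 0.96, 0.88, 0.80 and 0.80. The 4 relations passed in each of 18 alternative settings. Replicate 7 was highest and replicate 5 lowest in all 4 scores, and the heat shock score spanned only -0.46 to 0.49.

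**Figure D3:**
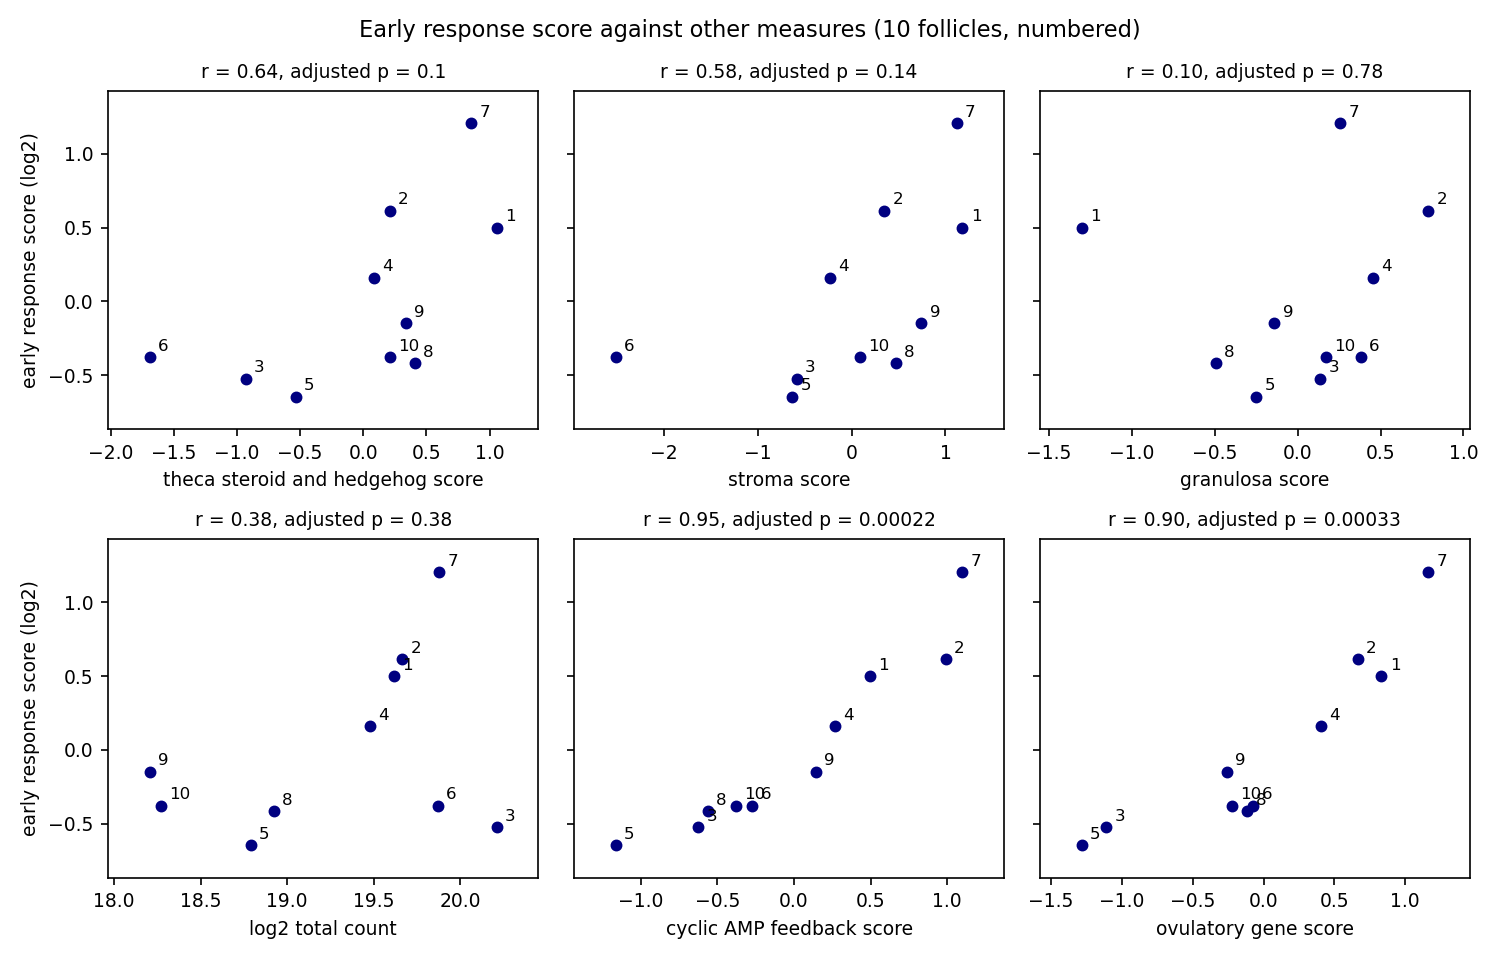
Early response score (y, log2 units) against 6 other measures (x) in the 10 follicles, numbered by replicate, with Pearson's r and the permutation p adjusted over 11 relations. The points for the cyclic AMP feedback and ovulatory scores lie near a line, whereas those for granulosa score and depth do not, and replicate 6 lies far to the left for the theca and stroma scores.

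Gene by gene, no relation of levels to depth was detected. edgeR's quasi-likelihood test on log2 total count called 0 of 4755 genes (0%), with 178 at an unadjusted p under 0.05. DESeq2 also called 0. With 10 follicles this does not show that no gene was related to depth. The early response score was related to 60 of 4729 genes outside its own list (1.27%), 57 rising and 3 falling (edgeR, Benjamini-Hochberg). The number was 24 without replicate 7, of which 21 were among the 60. The adjustment ran over all 4755 tested genes, with the list's own members, of which 15 passed. This makes calls near the threshold more lenient. Slopes are log2 changes per unit of score, with the SE. Rising genes included Yod1, a deubiquitinase (2.10, SE 0.22, adjusted p 0.00018), Tnfaip3, an inhibitor of NF-kappa B (1.83, SE 0.24, adjusted p 0.00089), and Cyp11a1 (2.04, SE 0.36, adjusted p 0.0096). Lhcgr, the receptor, had a slope of 2.16 (SE 0.51) and narrowly missed the threshold (adjusted p 0.055). Yod1 had 192.7 CPM in replicate 5, a median of 463.3 and 2862 in replicate 7. Comp, a matrix protein gene, and Adh1, an alcohol dehydrogenase, rose by 2.02 and 2.04, but neither passed without replicate 7 (adjusted p 0.301 and 0.302), Comp did not pass without replicate 5 (0.052), and Adh1 did not without replicate 3, 5 or 8 (0.056 to 0.093). Of the cyclic AMP feedback list 4 of 6 rose (Crem, Sik1, Rgs2 and Gem) and of the ovulatory list 2 of 7 (Adamts1 and F3). No gene passed of 10 heat shock, 4 EGF and ERK, 12 granulosa, 5 theca steroid and 5 stroma genes. At a share of 1.27% no call is expected in lists this small. The median slopes of these 5 lists were 0.24, 0.84, 0.12, 1.14 and 0.92 in that order, against -0.03 over all tested genes. Falling genes were Fhl2, a LIM domain cofactor (-1.20, adjusted p 0.0097), the cochaperone gene Bag2 (-1.16, adjusted p 0.0012) and Txnip, a thioredoxin inhibitor (-0.98, adjusted p 0.039). Each was lowest in replicate 7. Fhl2 was lost without replicate 7 (adjusted p 0.103), and Txnip without any 1 of 9 follicles (adjusted p 0.0535 to 0.223).

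The theca score was related to 99 of 4745 genes outside its lists (2.09%), 95 rising and 4 falling, or 51 without replicate 1 (edgeR, adjusted with list members included). Of 8 measured steroidogenesis genes 2 rose with it, as did Star of the ovulatory list: Lhcgr rose by 1.90 per unit (SE 0.25, adjusted p 0.00095), Star by 1.52 (SE 0.22, adjusted p 0.0012) and Cyp11a1 by 1.50 (SE 0.21, adjusted p 0.0012), while Fdx1, ferredoxin, did not pass (0.33, adjusted p 0.57). So did genes known from vessels and blood cells: Cdh5, the endothelial cadherin, by 1.45 (adjusted p 0.00064), Nrp1, a receptor for VEGF and semaphorins, by 1.89 (adjusted p 0.00022), and Lyz2 by 2.45 (adjusted p 0.00039). Cdh5 was the only endothelial gene of 7, and Lyz2 the only leukocyte gene of 7, with enough counts, so which cells were present was not tested. Of the 26 early genes, 4 rose with the theca score (Atf3, Nr4a2, Nr4a3 and Zfp36), while Fos (0.66, adjusted p 0.33) and Junb (0.51, adjusted p 0.38) did not pass. Zfp36 lost its call without any 1 of 5 follicles (adjusted p 0.063 to 0.130). Falling genes were Top2a, Pfas, a purine synthesis enzyme, Cdca4 and Racgap1. Top2a, Pfas and Cdca4 were lost without replicate 6 (adjusted p 0.376, 0.186 and 0.276), and between them also without replicate 1, 5, 7, 8, 9 or 10 (0.0597 to 0.0977).

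Clustering the 290 genes by their correlation over the follicles gave 7 groups of at least 10 genes, 242 genes in all. The groups are a description of the same values that chose the genes and carry no test. Over all called genes the mean pairwise r was 0.094. Group 1, of 76 genes, was led by Smoc2, a matrix protein, Cdh5, the lipid carrier gene Apoe, Nrp1, Igfbp5 and Cyp17a1. It held all 7 called theca and stroma genes, with Star, Cyp11a1, Lhcgr and Lyz2, and its mean was highest in replicate 1 (1.67) and lowest in replicate 6 (-1.74). Group 3, of 46 genes, held 11 of the 13 called early genes, led by Junb, Yod1, Ppp1r15a, Gadd45b, the arrestin-like gene Arrdc3 and the autophagy gene Atg101. Its mean was 1.62 in replicate 7 and -1.21 in replicate 5. Of the early genes only Atf3 and Nr4a3 fell in group 1 instead, and both had their second highest or highest level in replicate 1.

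Group 6, of 15 genes, held 2 of the 5 called granulosa genes (Inhba and Cyp19a1). It was led by Nap1l5, Grem1, a BMP antagonist, Prdm1, Slc26a7, Gsta4 and Masp1, and it included Vcan and Serpina3a. Nap1l5 was at 184.4 CPM in replicate 1, had a median of 1027 and reached 2254 in replicate 2. The mean of the group was lowest in replicates 1, 8 and 5 (-1.55, -1.46 and -1.14). Group 2, of 62 genes, was set by replicate 1 (-2.52, with the next follicle at -0.67). It held the 5 called cell cycle genes and the other 3 called granulosa genes, Inhbb, Fst and Hsd17b1, but its 6 leading names were clone-based identifiers with no annotation in GENCODE M21, such as RP23-274G21.3 (5.19 CPM in replicate 1 and 78.1 to 800.6 in the others). Of its members 18 had provisional names, against 57 of the 290 called genes and 260 of the 4755 tested.

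Groups 4 and 5, of 17 and 16 genes, were lowest in replicate 5 (-2.23 and -1.43). Group 4 held 8 provisional names beside Nipal2, a magnesium transporter-like gene. Group 5 held Zfand5, Mlxip, Sidt2, Pnrc1, mt-Co1 and the class I histocompatibility genes H2-D1 and H2-K1. mt-Co1 was at 32310 CPM in replicate 3 against a median of 6599, and H2-D1 at 134.4 CPM in replicate 5 and 893.9 in replicate 6. Group 7, of 10 genes, was high in replicates 1, 8 and 9 and included Ppp2r5a, a regulatory subunit of protein phosphatase, at 11.2 CPM in replicate 5 and 508.8 in replicate 8.

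**Figure D4:**
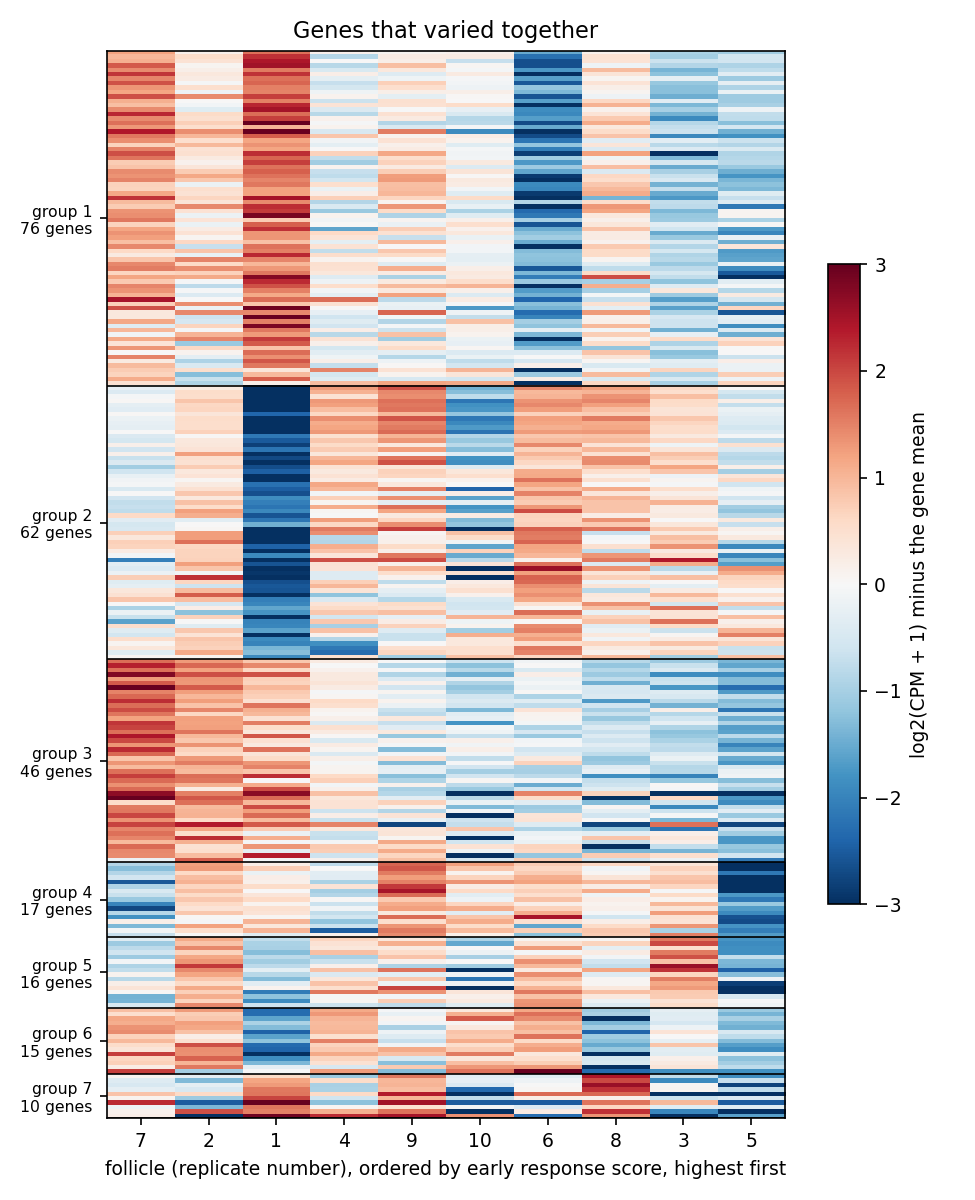
The 242 called genes in 7 groups (rows) in the 10 follicles (columns, ordered by early response score), as log2(CPM + 1) minus each gene's mean over the follicles, red above and blue below. Group 1 is red in replicates 1 and 7 and blue in replicate 6, group 2 is blue in replicate 1, and group 3 fades from replicate 7 to replicate 5.

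The same groups were then followed in follicles that had no part in forming them, 10 at 4 h and 11 at 8 h in batch 1. The mean pairwise r of group 1 was 0.72 at 1 h, 0.34 at 4 h and 0.23 at 8 h, and of group 3 it was 0.72, 0.23 and 0.06. For group 6 it was 0.78, 0.30 and 0.07, and for group 2 it was 0.67, 0.16 and 0.21. Group 4 gave 0.75, 0.37 and 0.32, group 5 gave 0.64, 0.07 and 0.05, and group 7 gave 0.62, 0.25 and 0.22. Over all called genes it was 0.094, 0.056 and 0.038. The value at 1 h is raised by the choice of the groups there, so the times are not compared.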

How the data were processed

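The authors' count table holds whole-number counts for 25147 genes, adjusted between batches with ComBat-seq per its name, with settings not stated. That method can alter the spread within a batch, which bears on every value here. The authors' deposited TPM table, computed from the adjusted counts per its name, served 1 alternative. Libraries were Smart-Seq2 and Nextera XT, per the labels' protocols, and not stranded, so reads of overlapping genes cannot be told apart. The submitters' processing notes name HISAT2, Partek and DESeq2 and the build GRCm38, without versions. Of the columns in each table, 10 could be matched to none of the samples described and were left aside.

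The 10 libraries were grouped by label and fitted with edgeR 4.0.16 in R 4.3.3 (TMM factors, mean count of at least 10, log2 CPM with a prior count of 2). Spread was tested as the adjusted deviance at the trended dispersion, and slopes with the quasi-likelihood F test on log2 total count, the early response score or the theca score. The early and theca lists' own members were left out of the count of genes related to their score. They were not left out of the Benjamini-Hochberg adjustment, which lowers the adjusted p of other genes near the threshold. Groups came from average linkage on 1 minus r, with a height of 0.5. Correlations and their permutations were computed with NumPy 2.4.6, and the ranks and the linkage with SciPy 1.17.1. The spread test and the slope test on the early response score were also run on simulated counts, with values not reported here. DESeq2 1.42.0, RLE factors, other filters, another prior count, thinning to 302737 counts, TPM and leaving out follicles were the alternatives, and leaving out replicates 9 and 10 together was added after seeing the data.

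The follicles and the gene lists were chosen with earlier results of these data known. Genes were named by rule: the 15 called genes farthest beyond the trend with a mean CPM of at least 20, up to 3 called members of each list, the 6 genes nearest each group mean, the 5 steepest slopes each way, and a set of known genes. Provisional identifiers, among them clone-based names, were left out of the first and last of the ranked choices, which for clone-based names was decided after seeing them. Other list members are named to complete a count and were chosen after their values were seen. Symbols were matched to GENCODE M21 (19557 matched once), and coordinates of promoters are RefSeq's. Deposited comparisons with 0 h were not used. The depth limits precision: a gene at the filter has about 10 counts per library.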

Additional observations from a re-analysis of the deposited data

Results flagged for a closer look

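By Dixon's criterion for 10 values (gap over range above 0.466), 2 of 21 scores and depth measures, 9 of 97 named genes and 1 of 7 group means had 1 follicle far from the rest. Chance flags about 1 in 20 sets of values that were not chosen by their spread. Many of the named genes, and the genes of all 7 groups, were chosen from their values in these same follicles. That rate therefore does not hold for them, and genes of 1 group are not independent.

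Replicate 1 was the far follicle in 9 of the 12. The cell cycle score was -1.61 there, with the next follicle at -0.19, and the mean of group 2 was -2.523, with the next at -0.67. On the log2 CPM scale Cdk1 was 2.09, Ccna2 2.474, Inhbb 2.474 and Fst 3.873, each the lowest, with the next follicle at 4.08, 4.95, 6.73 and 5.995. The clone-based names RP23-274G21.3 and RP24-294K15.7 were also lowest there, at 3.028 and 2.09. Ass1 was the only 1 of these 9 that was highest in replicate 1, at 7.986 with the next follicle at 4.08.

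Replicate 6 was far below the others in the stroma score, at -2.509 with the next follicle at -0.63. Replicate 5 was far below the others for the clone-based names RP23-296I6.4 and RP24-421G4.5, both at 1.566, where its counts were 0. The cause was not tested for any of these.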

How the results depend on the processing

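The number of genes beyond the trend was 290, and 482 with no filter on low counts, 122 with a mean count of at least 50, 176 after thinning, 24 as DESeq2 dispersion outliers and 0 by the F test. It was 242 to 289 without 1 follicle. Genes related to the early response score numbered 60, and 105 with no filter, 37 without replicates 9 and 10 and 135 with DESeq2, with a range of 24 to 60 without 1 follicle. Genes related to the theca score numbered 99, and 157 with no filter, 52 with a mean count of at least 50, 60 after thinning and 159 with DESeq2, with a range of 51 to 106 without 1 follicle. Stricter filters and thinning tested fewer genes. Otherwise the cause was not tested. No gene was called as related to depth in any setting run. Given depth, the partial correlation of the early score rose to 0.8231 with the theca steroid and hedgehog score and 0.7487 with the stroma score. Without 1 follicle r lay between 0.56 and 0.72, between 0.48 and 0.71, between -0.11 and 0.53 for granulosa and between 0.27 and 0.62 for depth. No result past its threshold changed sign. No paired analysis was possible because each test lies within 1 group of follicles. Total counts differed by 4.01 times, so genes near 10 counts in the shallowest libraries carry the largest counting error.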

Other observations

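Some names that would not be looked for in an ovarian follicle also varied, and they are given as values chosen after they were seen. Of the table's 1137 olfactory receptor names, 281 had a count, 53 passed the filter and 10 were called beyond the trend, against 6.1% of all tested genes. Of the 53, 40 (75.5%) were highest in replicate 9, the shallowest library, against 655 (13.8%) of all tested genes. Of 190 tested clone-based names 80 (42.1%) were highest there. Replicate 10, of nearly the same depth, was highest for 2 of the 53 and 7 of the 190. Olfr77 was at 564 to 1081 CPM and was not called.

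Kdm5d, a Y-linked histone demethylase gene in group 2, had 4 to 57 counts in each of the 10 follicles, 271 in all. The Y-linked genes Ddx3y and Eif2s3y had 0 counts in all 10, and Uty had 4 counts in all, with 0 in 8 follicles. These follicles come from ovaries, and where the reads counted for Kdm5d come from was not tested.

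Aldh1a7 and Nnt, beside mt-Co3 and Gm10273, were the tested genes with stepped counts. Slc38a3, an amino acid transporter gene in none of the 7 groups, was at 180.5 CPM in replicate 1, 82.9 in replicate 5 and 4.15 to 33.8 in the other 8.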
